A study of Mus musculus with 30 samples.

Results

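RNA of retinal ganglion cells (RGCs), which send the eye's signals to the brain through the optic nerve, was compared between the second and the first day after that nerve was crushed, across all genes of the count table. The comparison took the libraries labelled as day 2 after crush, replicates 1 and 2, against those labelled as day 1 after crush, replicates 1 to 3. These are 5 of 30 labelled samples, of which 15 are RNA and 15 are ATAC. A further labelled day 2 RNA sample, replicate 3, was not analysed here. Of 13752 genes in the table, 13737 passed the filter on low counts and were tested.

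Mice of both days carry the strain label C57BL/6 and the same injury, and the labels used here name no transgene, drug or age. RGCs were freed with papain and sorted by fluorescence, and the labels used here name no sorting marker. The question was what changed between the first and the second day. Uninjured cells (day 0, 3 libraries) and days 3 (3 libraries) and 4 (2 libraries) entered the same fit and give the level before and after. The strain labels of day 0 replicates 2 and 3 read C57BL/7 and C57BL/8. Whether the replicates of a day are different animals is not stated, so the p-values reflect only the spread between these libraries, which may be technical.

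As background, axon injury activates the kinase DLK and its downstream kinase JNK in RGCs, which leads to the transcription factors JUN, ATF3 and SOX11 and to pro-apoptotic genes. The same kinase pathway feeds the integrated stress response, in which phosphorylation of the translation factor eIF2 lowers general translation while the transcription factor ATF4 is translated and turns on genes of amino acid supply. RGCs of the mouse lose much of their mature expression pattern after crush, and most of them die over the following weeks.

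The 5 libraries held 19577588 to 22881404 counts in genes. Within a day, pairs of libraries correlated across genes at 0.969 to 0.980 (Pearson, log2 CPM, where CPM is a gene's count scaled to the TMM-adjusted size of its library), and between the days at 0.959 to 0.967. The 7 defining RGC genes summed to 4939 and 5506 CPM on day 2, against 6580, 6803 and 5844 CPM on day 1. Both day 2 sums were under all day 1 sums, and 4 of the 7 genes were called lower (57.1%, against 6.73% of all tested genes). In a refit with the authors' sequencing components as terms, 1 of the 7 was called lower. With the level of Xist (described below) as a term, or without day 1 replicate 2, 2 were called lower, and 3 without day 1 replicate 1. Calls were also lost when day 2 replicates 1 and 2 were left out in turn. The median of the 7 was then log2 -0.26 and -0.32, against -0.30 in the main fit.

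Some values separated the libraries of the days before any injury gene was considered. Xist, the RNA made from the inactive X chromosome of female cells, was at 0.561 and 1.30 CPM in the day 2 libraries, against 1826, 1577 and 1159 CPM in the day 1 libraries. On day 0 it was at 206, 0.389 and 0.739 CPM, on day 3 at 961, 6.11 and 895 CPM, and on day 4 at 4689 and 3583 CPM. No sex is given in the labels used here. A difference in sex between the animals of both days therefore cannot be told apart from the day. Other X-linked genes differed by less, with Kdm6a at 53.3 and 55.6 CPM on day 2 against 61.3, 63.5 and 65.7 CPM on day 1, and of 477 tested X-linked genes 34 (7.13%) were called higher and 43 (9.01%) lower, against 6.19% and 6.64% on the other chromosomes.

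Markers of rods and cones summed to 361 and 474 CPM on day 2, against 1010, 1107 and 1340 CPM on day 1. Of these 22 markers 4 were called lower (18.2% against 6.73% of all genes) and 0 were without counts on either day. The count was 13 with the days compared alone, 12 with the sequencing components, and 0 with the Xist term or without day 1 replicate 3 or either day 2 library. Markers of Müller glia and astrocytes (16 tested) summed to 1273 and 1202 CPM on day 2 against 2250, 2027 and 2064 CPM on day 1, or to 862 to 921 CPM on day 2 against 1008 to 1272 CPM on day 1 without Aldoc, an enzyme gene that neurons also express, and 3 of them were called lower (18.8%). Microglia and macrophage markers (17 tested) had 574 and 503 CPM on day 2 against 1382, 225 and 361 CPM on day 1, so day 1 replicate 1 stood highest. None of the 17 was called, while 6 were called higher without day 1 replicate 1 (median log2 0.81, against -0.09 with it) and 3 with the sequencing components. The second of the authors' sequencing components was 0.0275 and 0.0180 in the day 2 libraries, against -0.240, -0.128 and -0.116 in the day 1 libraries. The part of all these differences in the results was not tested beyond 2 refits, 1 with the Xist level as a term and 1 with the authors' first 2 sequencing components. In bulk RNA, fewer cells of a type and less RNA per cell cannot be told apart.

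**Figure D1:**
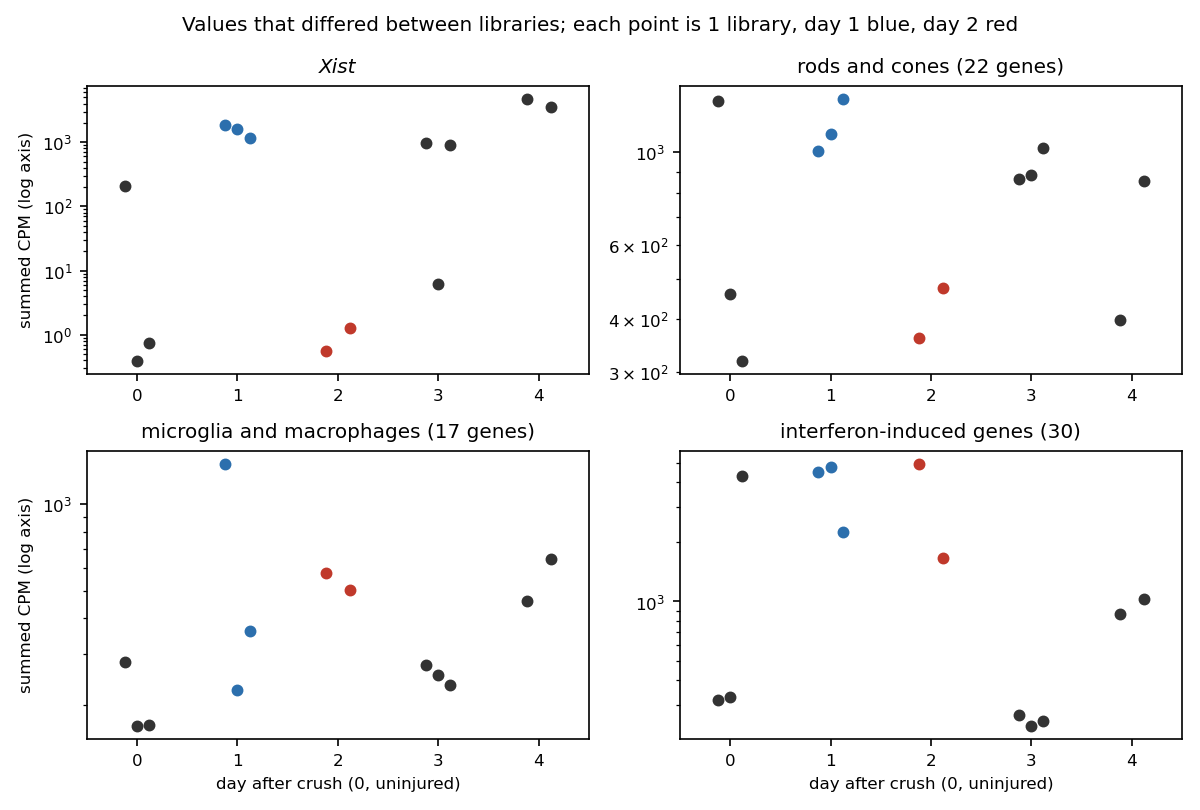
Xist and the summed CPM of the rod and cone, microglia and macrophage, and interferon-induced lists in every RNA library (points), on log axes, by day after crush. Both day 2 libraries lie below all 3 day 1 libraries for Xist (0.561 and 1.30 against 1159 to 1826 CPM) and for rod and cone markers (361 and 474 against 1010 to 1340 CPM), while the other lists overlap between these days.

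Between day 1 and day 2, 1779 genes passed an adjusted p under 0.05 in edgeR's quasi-likelihood test, which is 13% of those tested. Of these 855 were higher on day 2 (6.22%) and 924 lower (6.73%). Most changes were small: 186 of the higher and 166 of the lower genes changed at least 2-fold, and the median called rise was log2 0.61 and the median called fall log2 -0.62. Both day 2 libraries lay above all 3 day 1 libraries in 22.5% of all tested genes and below them in 22.9%. The count of calls was 961 and 682 when day 2 replicates 1 and 2 were left out in turn, 626 with the sequencing components and 483 with the Xist level as terms, and 428 of the 1779 calls were made again with the Xist term.

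**Figure D2:**
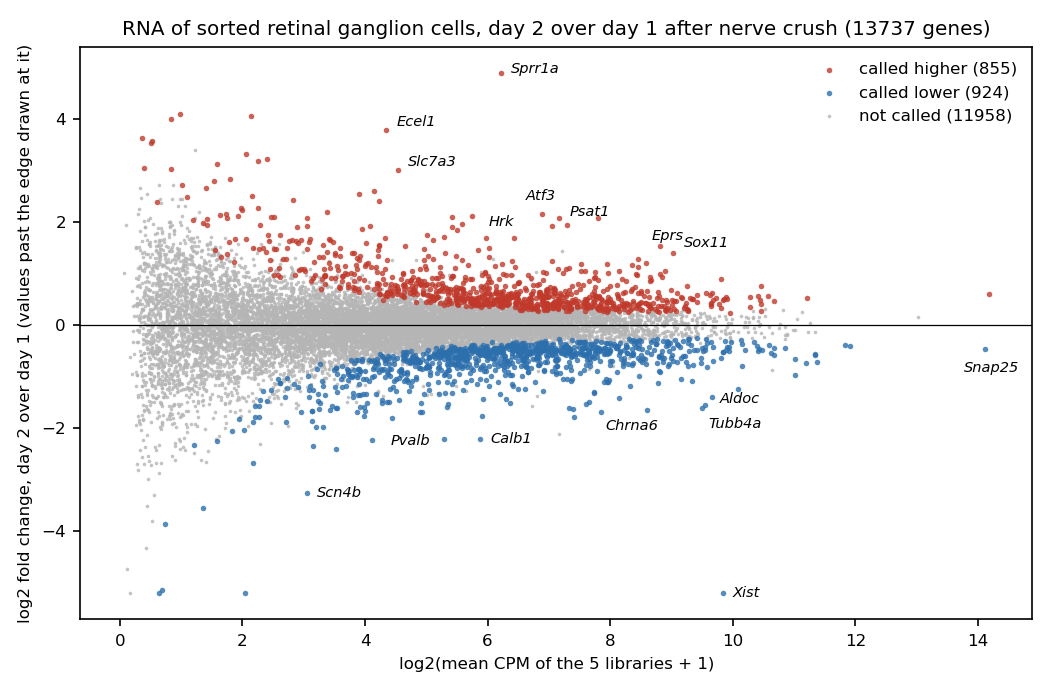
Log2 fold change of day 2 over day 1 against the log2 mean CPM of the 5 libraries, 1 point per tested gene, with 855 genes called higher in red and 924 called lower in blue; values past the edge are drawn at it. Sprr1a (log2 4.90) and Ecel1 (3.80) stand out above and Scn4b (-3.26) and Xist (-10.66) below.

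The largest rises were picked among called genes with a mean of at least 5 CPM and no overlap between the libraries of both days. They included genes of axon injury and of amino acid supply. Sprr1a, a small proline-rich protein induced in regenerating sensory neurons, had 188 and 159.7 CPM on day 2, against 7.59, 5.57 and 4.39 CPM on day 1. Both day 2 libraries were far above every day 1 library, a 29.9-fold rise (log2 4.90 ± 0.47, SE; edgeR adjusted p = 3.61e-06), for which DESeq2 gave no adjusted p. Ecel1, a membrane peptidase induced in damaged neurons, had 35.6 and 52.0 CPM on day 2 against 1.38, 3.27 and 4.67 CPM on day 1, a 13.9-fold rise (adjusted p = 1.75e-07 in edgeR). Its change was log2 0.57 from day 0 to day 1 and 3.80 in the later step, a difference of 3.23 ± 0.52. With the sequencing components it was 2.10 and with the Xist term 3.08, and it was called with neither. Itga5, the integrin subunit of the fibronectin receptor, rose 5.86-fold, Lix1 rose 5.36-fold, Avil, an actin-binding protein of peripheral sensory neurons, rose 5.4-fold, and Cyb5r1 rose 4.3-fold. Tmc1, a subunit of the hair cell mechanotransduction channel, had 32.9 and 34.0 CPM on day 2 against 4.92, 6.28 and 5.23 CPM on day 1, and its call was lost with the Xist term (adjusted p = 0.077 in edgeR). Il1b, an inflammatory cytokine, was called only just (18.6 and 17 CPM on day 2 against 7.28, 1.5 and 2.82 CPM on day 1; edgeR adjusted p = 0.0496), and was at log2 -0.32 with the Xist term.

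The largest falls under the same rule included Xist, Scn4b, Tmem232, Cck, Calb1, Pvalb, Rasgrp2, Plekhg1, Adra2c, Vtn and Fdps. Rasgrp2, an exchange factor for RAS-family GTPases, had 3.92 and 2.55 CPM on day 2, against 12.3, 11.8 and 14.2 CPM on day 1. Adra2c, an adrenergic receptor, had 2.71 and 1.52 CPM on day 2 against 10.5, 4.73 and 8.14 CPM on day 1. The lack of overlap between the days was required by the rule. The calls on Rasgrp2 and Adra2c were lost without day 2 replicate 2 and with either added term. Tmem232 (log2 -2.34) was not called without either day 2 library. Calls on Cck, Calb1, Pvalb and Fdps were lost under none of the alternatives.

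Of the 26 transcription factors tied to axon injury, 7 rose (26.9%, against 6.22% of all genes) and 0 fell. The median was log2 0.42 against 0.01 over all genes. Atf3, a stress-induced factor of the ATF family, had 223 and 216 CPM on day 2, against 54.4, 44.0 and 49.8 CPM on day 1. The groups were far apart, at 4.45-fold (log2 2.15 ± 0.14; edgeR adjusted p = 1.04e-07). Sox11, a factor of developing neurons, had 825 and 842 CPM on day 2 against 301, 345 and 298 CPM on day 1, a 2.65-fold rise (edgeR adjusted p = 1.02e-07). Klf6, which promotes axon growth, had 424 and 423 CPM against 255, 271 and 257 CPM, a 1.62-fold rise. Myc (log2 1.86), Nfil3 (1.09), Fosl2 (0.91) and Bach1 (0.80) completed the 7. Jun, the partner of ATF3 in AP-1, had 512 and 561 CPM on day 2 against 459, 488 and 477 CPM on day 1 and did not pass (log2 0.18 ± 0.19, edgeR adjusted p = 0.635), although both day 2 libraries were above all day 1 libraries. Creb5, a CREB-family factor, was at 49.1 and 48.1 CPM against 29.2, 37.8 and 37.8 CPM (log2 0.47 ± 0.35, edgeR adjusted p = 0.454).

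For several of these factors the step from day 1 to day 2 was smaller on the log2 scale than that from day 0 to day 1, by a test of the difference of both steps in the same fit. On days 0, 1 and 2 the mean CPM of Sox11 was 42.0, 315 and 834, and that of Atf3 3.49, 49.4 and 220. Both thus gained more CPM in the later step, unlike Jun and Creb5. The day 1 libraries enter both steps, with opposite signs. Sox11 had moved by log2 2.90 in the earlier step and by 1.41 in the later one (difference -1.50 ± 0.14, edgeR adjusted p = 2.57e-05). Jun was at 2.43 and then 0.18 (difference -2.25 ± 0.30, edgeR adjusted p = 0.000763). Creb5 was at 6.21 and then 0.47 (difference -5.74 ± 0.66, edgeR adjusted p = 0.000184). Atf3 moved by 3.84 and then 2.15 (difference -1.68 ± 0.25, edgeR adjusted p = 0.00164), a call that was lost with either added term. The differences of Sox11 and Jun were called under all 18 alternatives, and that of Creb5 under 17. Over all genes, 322 (2.34%) had called differences between the steps, 147 positive and 175 negative, or 27 with the Xist term and 746 with DESeq2.

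**Figure D3:**
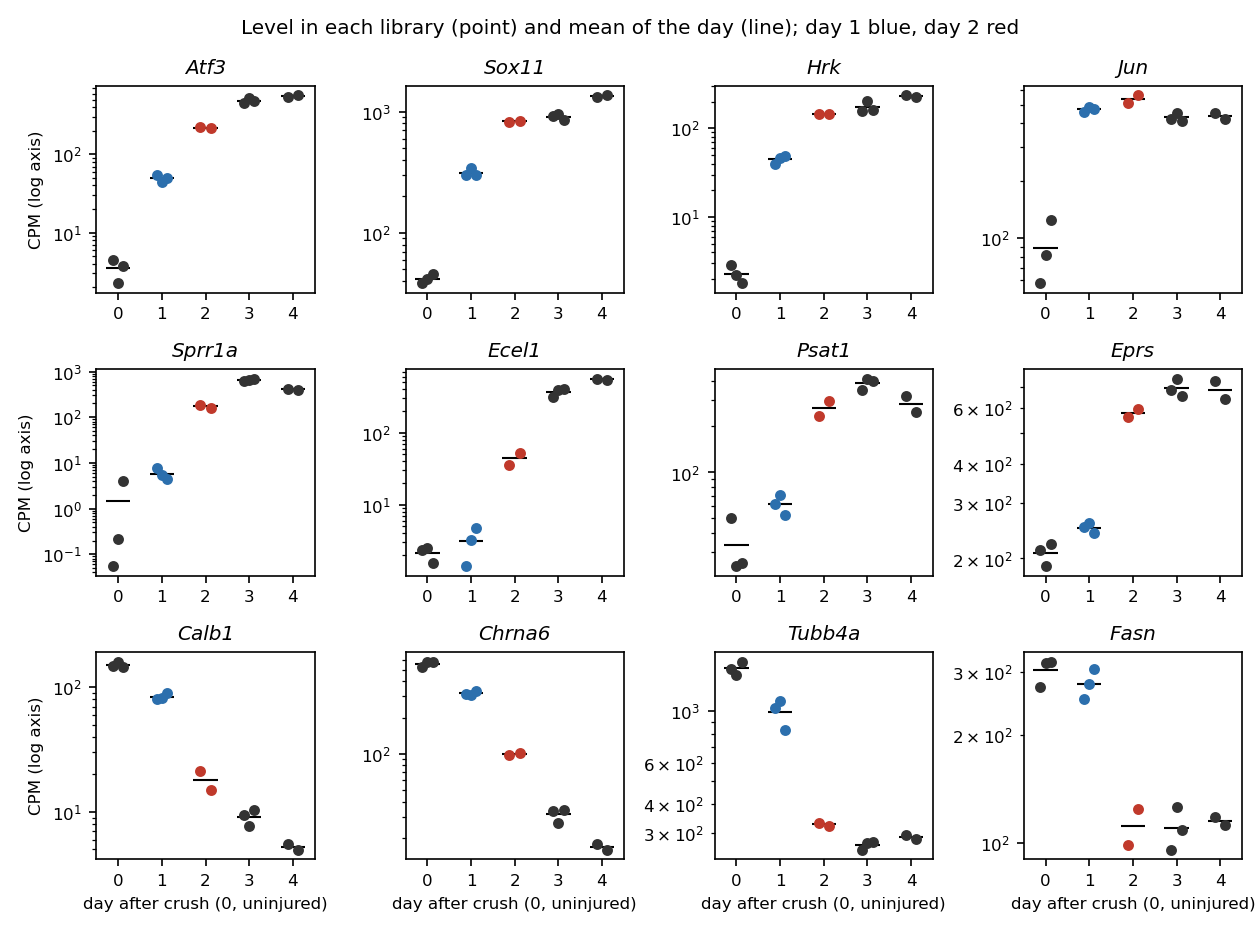
CPM of 12 genes in every RNA library (points) with the mean of each day (lines), log axes, days 0 to 4 after crush. Atf3, Sprr1a and Ecel1 were higher on day 2 than day 1 and higher again on day 3, Jun stood at 459 to 561 CPM on these days, and Calb1, Chrna6, Tubb4a and Fasn were lower on day 2 than on day 1.

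Genes on the integrated stress response list were higher on day 2. This list also holds Atf6, Ern1 and Xbp1, which act in the response to unfolded protein apart from eIF2 phosphorylation and are among the rises. Of 20 factors and regulators 10 rose (50%, against 6.22% of all genes) and 0 fell (median log2 0.66). Their summed level was 2472 and 2569 CPM on day 2, against 1660, 1741 and 1607 CPM on day 1. From day 0 to day 1 the median was log2 1.085, and 3 of the 20 had called differences between the steps, all negative. Ddit3, which encodes the pro-apoptotic factor CHOP, had 269 and 281 CPM on day 2 against 123, 113 and 127 CPM on day 1. There was no overlap (2.28-fold, log2 1.19 ± 0.13, edgeR adjusted p = 1.3e-05). From day 0 to day 1 Ddit3 had moved by log2 2.53, and its steps differed by -1.35 ± 0.21 (edgeR adjusted p = 0.00257). That call was lost with either added term. In mean CPM Ddit3 was at 20.9, 121 and 275 on days 0, 1 and 2. Atf6, a sensor of unfolded protein in the endoplasmic reticulum, had 321 and 352 CPM against 177 to 217 CPM (log2 0.77 ± 0.10). Sesn2, an ATF4 target that restrains the growth kinase mTORC1, had 74.5 and 76.5 CPM against 28.4, 36.9 and 34.7 CPM, 2.26-fold. Cebpg, a binding partner of ATF4, had 254 and 260.4 CPM against 175, 189 and 169 CPM (log2 0.53 ± 0.11, edgeR adjusted p = 0.00332). Stc2 (log2 1.65), Atf5 (1.26), the stress kinase gene Ern1 (1.09), the eIF2 phosphatase subunit gene Ppp1r15a (0.83), Vldlr (0.58) and Xbp1 (0.49) also passed. Atf4 itself, which is regulated mainly at translation, had 385 and 407 CPM against 327, 334 and 321 CPM and did not pass (log2 0.27 ± 0.16, edgeR adjusted p = 0.333). With the sequencing components as terms, 3 of the 20 were called and Sesn2 and Cebpg were not, while 7 were called with the Xist term.

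Amino acid synthesis and one-carbon genes, classical targets of ATF4, had the highest median of the 50 lists, log2 0.75. Among 18 genes 9 were higher (50%, against 6.22% of all genes) and 0 lower. Psat1, the second enzyme of serine synthesis, had 233 and 294 CPM on day 2, against 61.9, 71.3 and 52.6 CPM on day 1, which is 4.25-fold (log2 2.09 ± 0.23; edgeR adjusted p = 1.37e-05). Every day 2 library was more than 3-fold above every day 1 library. Shmt2, which splits serine for mitochondrial one-carbon metabolism, had 69.4 and 76.3 CPM against 25.7, 31.4 and 33.2 CPM. Aldh1l2, a mitochondrial folate enzyme, had 87.2 and 109 CPM against 16, 25 and 26 CPM, with adjusted p = 0.053 in edgeR once the sequencing components were added. The first enzyme of serine synthesis, Phgdh (log2 1.70), the cysteine-forming enzyme Cth (1.67), the asparagine synthetase Asns (0.89), Mthfd1l (0.86), Gpt2 (0.81) and Pck2 (0.69) rose as well. Of the 18, 3 were called higher with the sequencing components and 7 with the Xist term.

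Of 16 amino acid transporters 8 rose (50%) and 1 fell (6.25%), against 6.22% and 6.73% of all genes (median log2 0.60). Slc7a3, a carrier of cationic amino acids, had 41.2 and 52.6 CPM on day 2 against 4.46, 7.65 and 5.23 CPM on day 1, 8.08-fold (log2 3.01 ± 0.42, adjusted p = 0.000148 in edgeR, and 0.054 with the sequencing components). Slc3a2, the heavy chain shared by several carriers, had 207 and 222 CPM against 97.5, 106 and 114 CPM. Its light chains Slc7a5 (log2 1.09) and Slc7a11 (1.25), which import leucine and cystine, passed too. Slc38a2, a glutamine carrier, had 522 and 594 CPM against 341, 356 and 369 CPM. The transporter that fell was Slc1a1, a neuronal glutamate and cysteine carrier (log2 -0.44). With the sequencing components 1 of the 16 was called higher, and 8 with the Xist term.

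Many of the genes that load transfer RNAs rose. In the list of 20 cytosolic synthetases with the transfer RNA exporter Xpot, 12 rose and 0 fell (60% against 6.22% of all genes), their median was log2 0.60, and the summed level was 5019 and 5333 CPM on day 2, against 3129, 3187 and 2992 CPM on day 1. Eprs, the synthetase for glutamate and proline, had 561 and 596 CPM on day 2 against 252, 258 and 240.2 CPM on day 1, and the groups did not overlap (2.31-fold, log2 1.21 ± 0.09, edgeR adjusted p = 2.72e-07). Xpot had 206 and 209 CPM against 99.2, 103 and 89.2 CPM. The asparagine synthetase for transfer RNA, Nars, had 1184 and 1302 CPM against 680.2, 723 and 597 CPM. Lars (log2 1.04), Sars (0.85), Cars (0.77), Gars (0.74), Aars (0.66), Wars (0.65), Yars (0.60), Tars (0.60) and Farsb (0.36) made up the 12. The list had 12 calls with the Xist term, 10 with the sequencing components and 11 without either day 2 library. Eprs was at log2 0.27 from day 0 to day 1, and the later step was larger (difference 0.94 ± 0.15, edgeR adjusted p = 0.0027, a call lost with the Xist term).

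**Figure D4:**
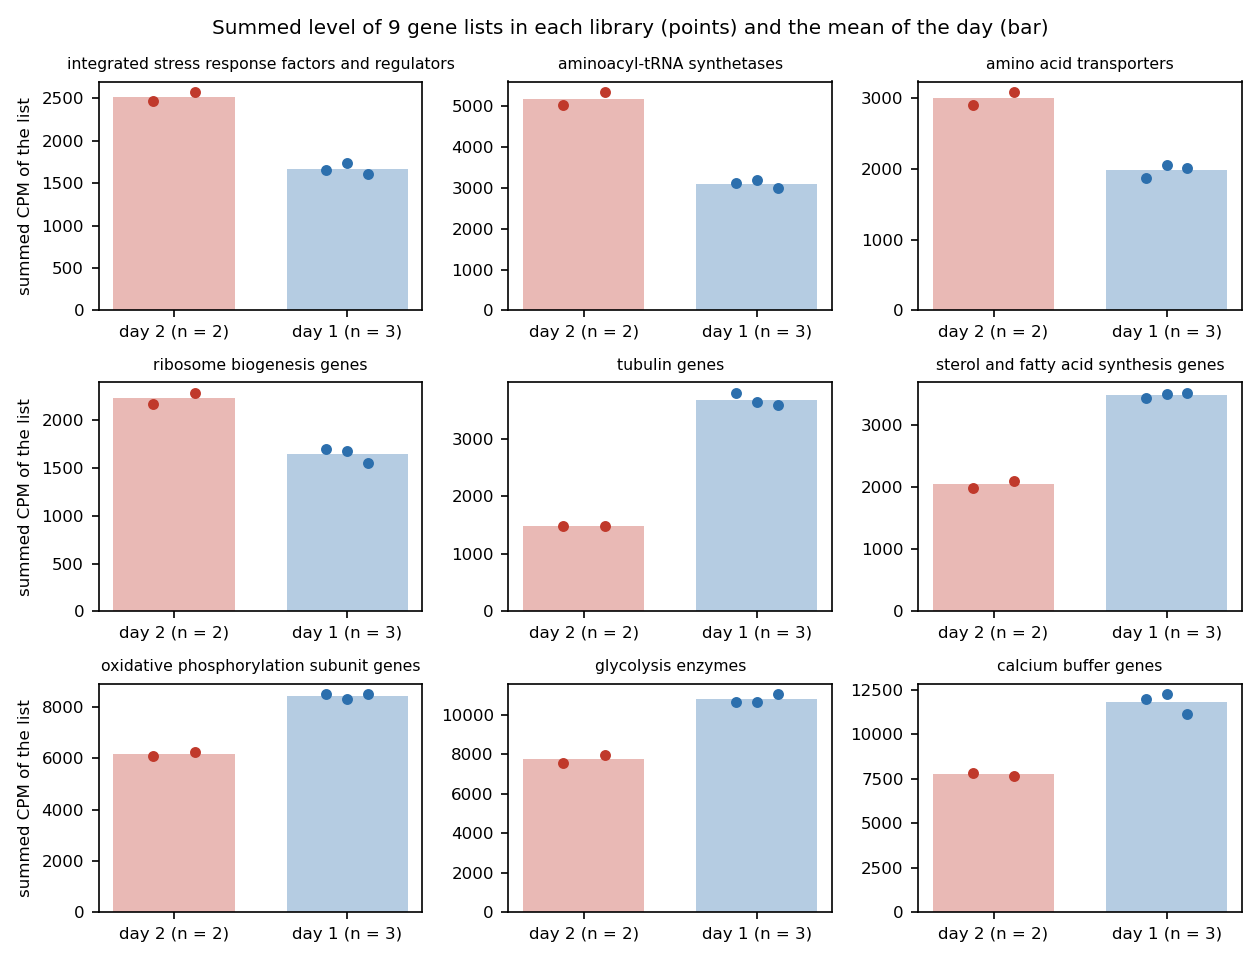
Summed CPM of 9 gene lists in each day 2 and each day 1 library (points) with the mean of the day (bars from 0). The synthetases had 5019 and 5333 CPM on day 2 against 2992 to 3187 CPM on day 1, and the tubulin genes 1478 and 1487 CPM against 3593 to 3788 CPM.

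ATF4 binds DNA with a C/EBP partner at a composite element, searched here as TGATGNAA on both strands of RefSeq promoters (250 bases before to 50 after a gene's start, GRCm38.p6). Promoters were found by symbol for 10797 of the 13737 tested genes. The element lay in 15 of the 68 promoters (22.1%) of 58 genes of the stress, amino acid, transporter and synthetase lists. It lay in 4.48% of promoters of all genes higher on day 2, in 1.31% of those lower, in 2.37% of those tested and in 3.97% of all RefSeq promoters. The lists hold genes known as ATF4 targets, so this share describes them and does not test them. By comparison, the AP-1 motif TGANTCA was in 7.58% of promoters of higher genes, 5.43% of lower and 5.11% of tested genes, and the cyclic AMP motif TGACGTCA in 3.67%, 3.62% and 2.93%. The promoters of Atf3, Asns, Slc7a11, Slc1a4, Tars and Avil are shown on the coding strand because these genes rose and their windows hold the element. Capitals mark each match to the element on either strand.
Atf3 (chr1:191183284-191183583, minus strand): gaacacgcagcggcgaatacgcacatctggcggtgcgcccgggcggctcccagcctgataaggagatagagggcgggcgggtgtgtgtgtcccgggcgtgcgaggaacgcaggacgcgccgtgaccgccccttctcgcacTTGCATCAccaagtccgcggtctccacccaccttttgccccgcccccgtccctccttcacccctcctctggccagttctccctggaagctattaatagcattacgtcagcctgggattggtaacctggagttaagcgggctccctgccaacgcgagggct
Asns (chr6:7693160-7693459, minus strand): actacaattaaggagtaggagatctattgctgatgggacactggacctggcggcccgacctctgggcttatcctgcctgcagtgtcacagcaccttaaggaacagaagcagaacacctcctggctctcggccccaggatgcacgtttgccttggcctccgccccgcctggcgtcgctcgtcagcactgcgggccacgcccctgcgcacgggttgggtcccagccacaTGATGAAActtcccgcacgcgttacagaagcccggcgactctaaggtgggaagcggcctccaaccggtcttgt
Slc7a11 (chr3:50443564-50443863, minus strand): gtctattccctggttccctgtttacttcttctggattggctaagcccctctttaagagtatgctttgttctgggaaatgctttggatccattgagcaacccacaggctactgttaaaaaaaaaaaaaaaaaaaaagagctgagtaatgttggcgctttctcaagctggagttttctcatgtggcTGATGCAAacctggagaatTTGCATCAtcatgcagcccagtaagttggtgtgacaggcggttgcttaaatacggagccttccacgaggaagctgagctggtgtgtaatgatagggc
Slc1a4 (chr11:20332664-20332963, minus strand): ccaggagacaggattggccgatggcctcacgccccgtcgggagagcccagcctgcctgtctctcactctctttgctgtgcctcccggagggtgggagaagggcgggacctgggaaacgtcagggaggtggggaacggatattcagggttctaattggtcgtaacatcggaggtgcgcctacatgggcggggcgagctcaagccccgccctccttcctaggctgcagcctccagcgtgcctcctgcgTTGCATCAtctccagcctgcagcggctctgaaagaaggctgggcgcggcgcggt
Tars (chr15:11399609-11399908, minus strand): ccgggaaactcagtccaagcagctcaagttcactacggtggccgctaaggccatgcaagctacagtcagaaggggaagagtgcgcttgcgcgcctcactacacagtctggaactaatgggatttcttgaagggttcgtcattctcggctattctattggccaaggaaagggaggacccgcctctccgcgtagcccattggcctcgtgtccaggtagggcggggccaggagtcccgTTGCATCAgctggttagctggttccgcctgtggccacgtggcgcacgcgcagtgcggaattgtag
Avil (chr10:127000459-127000758, plus strand): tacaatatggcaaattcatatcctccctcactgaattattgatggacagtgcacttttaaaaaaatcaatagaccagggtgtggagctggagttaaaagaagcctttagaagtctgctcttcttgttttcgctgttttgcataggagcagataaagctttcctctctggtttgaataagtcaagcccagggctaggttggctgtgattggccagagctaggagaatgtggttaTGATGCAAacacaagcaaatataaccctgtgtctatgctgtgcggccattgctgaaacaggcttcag
The match began 110 bases before the annotated start in Atf3, 23 in Asns, 66 in Slc7a11 for the first of 2, 4 in Slc1a4, 15 in Tars and 17 in Avil. Of the 15 list genes with the element 6 were not called, Chac1, Got1, Iars, Nupr1, Pycr1 and Trib3. A match is a run of letters and not a measured binding site.

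Other protein quality control genes moved less evenly. Of 23 endoplasmic reticulum chaperone genes 4 rose (17.4%) and 1 fell (4.35%), against 6.22% and 6.73% of all genes (median log2 0.08). Hspa5, the chaperone BiP, led the rises. It had 596 and 687 CPM on day 2 against 389.9, 291 and 286 CPM on day 1 (log2 0.99 ± 0.15, edgeR adjusted p = 0.000366, or 0.16 with the Xist term). Hspa5 had been at log2 -0.34 from day 0 to day 1 (not called), and the steps differed by 1.34 ± 0.26. That difference ranged from 0.76 to 2.04 and was called under 13 of 18 alternatives, not with the days compared alone, the Xist term, or without day 1 replicate 2 or 3 or day 2 replicate 2. With the Xist term 0 of the 23 were called higher and 1 lower. Of 21 cytosolic heat shock genes 3 rose (14.3%) and 2 fell (9.52%). Hspb1, a small heat shock protein induced by axon injury, had 17.3 and 16.7 CPM against 4.51, 6.14 and 5.92 CPM, 3.07-fold. Hsp90aa1 rose by log2 0.55, while Hspa8 (-0.30) and Dnajb4 (-0.41) fell. With the sequencing components 2 of the 21 were called higher and 0 lower, and with the Xist term 1 and 0. Without day 1 replicate 1 or 2 there were 2 higher and 0 lower. Among 28 antioxidant genes 4 rose and 4 fell (14.3% each way). Hmox1, heme oxygenase, had 50.9 and 63.1 CPM against 17, 19 and 18.3 CPM (log2 1.65 ± 0.13), and Srxn1, which repairs peroxiredoxins, had 508 and 535 CPM against 240.0, 236 and 237 CPM. The ferritin gene Fth1 (-0.64), Txn1 (-0.63), Sod2 (-0.57) and Prdx1 (-0.41) fell. Of the 28, 2 were called higher and 0 lower with the sequencing components, and 4 and 1 with the Xist term.

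Among 23 genes of the BCL2 family and cell death, 3 rose (13%, against 6.22% of all genes) and 0 fell. The median was log2 0.11. Hrk, a BH3-only protein of neurons, had 144 and 146 CPM on day 2 against 39.4, 46.2 and 49.2 CPM on day 1, 3.22-fold (log2 1.69 ± 0.14; edgeR adjusted p = 7.86e-07). Bcl2l11, which encodes the BH3-only protein BIM, had 274 and 255 CPM against 121, 133 and 128 CPM, 2.08-fold. For both the later step was the smaller on the log2 scale: from day 0 to day 1 Hrk had moved by log2 4.32 and Bcl2l11 by 3.16. The differences of -2.63 ± 0.24 and -2.10 ± 0.20 were called under all 18 alternatives. In mean CPM on days 0, 1 and 2, Hrk was at 2.29, 44.9 and 145 and Bcl2l11 at 14.3, 127 and 264, so both gained more CPM in the later step.

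Among 17 targets of the tumour suppressor p53, 3 rose (17.6%, against 6.22% of all genes) and 0 fell. Cdkn1a, the cell cycle inhibitor p21, had 214 and 258 CPM on day 2, against 60.1, 65.3 and 59.3 CPM on day 1 (3.83-fold, log2 1.94 ± 0.12, edgeR adjusted p = 1.02e-07). Gadd45a, a stress and DNA damage gene, had 61 and 62.5 CPM against 20.7, 27.5 and 22 CPM. Mdm2, the ligase for p53, was called at log2 0.31 (edgeR adjusted p = 0.0467), and its call was lost when any 1 of the 5 libraries was left out. Of 23 genes of DLK and JNK signalling 3 rose and 3 fell (13% each way, against 6.22% and 6.73% of all genes). Tnik, a kinase upstream of JNK, had 393 and 425 CPM against 203, 210.2 and 177 CPM (log2 1.06 ± 0.11), after log2 -0.06 from day 0 to day 1, a difference of 1.12 ± 0.18 (edgeR adjusted p = 0.00353, a call lost with the Xist term). The neuronal JNK gene Mapk10 had 612 and 559 CPM against 818, 892 and 765 CPM (log2 -0.50), with Mapk9 (-0.39) and the scaffold gene Mapk8ip2 (-0.43). With the sequencing components 2 of the 23 were called higher and 0 lower, and with the Xist term 1 and 0. Of 20 immediate early genes 4 rose (20%) and 0 fell. Egr1 was at log2 0.76 and Egr3 at 1.47, and neither call held with the sequencing components. Only 1 of the 20 was called when either day 2 library was left out.

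Effectors of regeneration went both ways, with 10 of 35 higher (28.6%) and 8 lower (22.9%), against 6.22% and 6.73% of all genes. Besides Sprr1a and Ecel1, the rises were those of Tnfrsf12a (log2 1.75), a receptor of the TNF family, Vgf (1.72), a neuropeptide precursor, Hspb1, Gadd45a, Adcyap1 (1.00), the precursor of the peptide PACAP, Flrt3 (0.66), Gap43 (0.43) and Basp1 (0.27). Vgf had 60.8 and 69.8 CPM on day 2 against 19.9, 20.6 and 18.9 CPM on day 1, with no overlap. Gap43, a growth cone protein, had 271 and 274 CPM against 202, 224 and 179 CPM (edgeR adjusted p = 0.00969), and that call was lost without either day 2 library and with either added term. The 8 falls were tubulins and proteins that bind tubulin or sit in the cortex and cytoskeleton: Tuba1a (-1.38), Tubb3 (-1.10), Tubb2b (-0.61), Stmn1 (-0.57), Stmn3 (-0.68), Dpysl3 (-0.38), Prph (-1.59) and Anxa2 (-0.67). With the sequencing components 8 of the 35 were called higher and 4 lower, and with the Xist term 7 and 6.

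Single guidance, matrix and growth factor genes changed by large amounts. Of 67 guidance genes 6 rose (8.96%) and 5 fell (7.46%), near the 6.22% and 6.73% of all genes. Sema3c, a secreted semaphorin, had 7.99 and 10.4 CPM on day 2 against 1.23, 1.15 and 0.555 CPM on day 1 (9.40-fold, edgeR adjusted p = 4.32e-07). Plxna2, a semaphorin receptor, had 365 and 348 CPM against 177, 202 and 149 CPM, after a change of log2 -0.20 from day 0 to day 1 (difference of the steps 1.22 ± 0.19, a call lost with the Xist term). Sema7a, a membrane-anchored semaphorin, had 17.1 and 17.8 CPM against 37.7, 46.3 and 42 CPM (log2 -1.26 ± 0.18). Of 41 matrix and adhesion genes 5 rose and 5 fell (12.2% each way, against 6.22% and 6.73% of all genes). With the sequencing components 3 of the 41 were called higher and 1 lower, and with the Xist term 1 and 1. The protease gene Mmp12, known from macrophages, had 481 and 344 CPM against 106, 94.1 and 91.4 CPM (4.24-fold, and edgeR adjusted p = 0.27 with the Xist term), and Mmp9 had 31.6 and 27.2 CPM against 72.3, 82.2 and 84 CPM. Fgfr1, a fibroblast growth factor receptor, had 49.3 and 48.8 CPM against 17, 16.6 and 19.1 CPM (2.79-fold), and was 1 of 2 of 30 growth factor and cytokine signalling genes that rose, with Cntfr (log2 0.91). The 2 that fell were Fgf12 (-0.59) and Igf1 (-0.38), so 6.67% went each way, near the shares of all genes.

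Lipid synthesis genes fell together on day 2, with the highest share of falls among the 50 lists. Of 31 genes of sterol and fatty acid synthesis and their control, 23 fell and 0 rose (74.2% against 6.73% of all genes), with a median log2 of -0.80, and their summed level was 1987 and 2111 CPM on day 2, against 3437, 3503 and 3517 CPM on day 1. As background, these genes share the SREBP transcription factors, which sterol depletion activates. Fdps, which makes farnesyl diphosphate, had 8.08 and 8.67 CPM on day 2 against 27.7, 25.8 and 33.5 CPM on day 1 (log2 -1.79 ± 0.20, edgeR adjusted p = 1.35e-05). Its highest day 2 library was far under its lowest day 1 library. Fasn, fatty acid synthase, had 99.1 and 125 CPM against 251, 278 and 305 CPM, and Insig1, the sterol-dependent brake on SREBP, had 96.2 and 108 CPM against 217, 198 and 211 CPM. The mevalonate enzymes Mvd (-1.69), Mvk (-1.65), Idi1 (-1.22), Pmvk (-0.90) and Hmgcs1 (-0.88), the desaturase Scd2 (-0.64) and the regulator Srebf2 itself (-0.53) fell with them.

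From day 0 to day 1 the median of the lipid genes was log2 -0.22. Of the 31, 6 had called differences between the steps, all toward a lower value in the later one. For Fasn the steps were log2 -0.12 and -1.31, a difference of -1.19 ± 0.20 (edgeR adjusted p = 0.00419). This difference was called under all 18 alternatives. Of the 31 genes 15 were called lower with the Xist term, 10 with the sequencing components, 13 and 16 when day 2 replicates 1 and 2 were left out in turn, and 0 were called higher in any of these.

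Tubulin genes fell as well. Of 14 tested, 10 fell and 0 rose (71.4%), with a median log2 of -1.13, the lowest of the 42 lists that are not marker lists, and a summed level of 1478 and 1487 CPM on day 2 against 3788, 3637 and 3593 CPM on day 1. Tubb4a, a neuronal beta tubulin, had 332 and 321 CPM on day 2 against 1029, 1103 and 833 CPM on day 1 (log2 -1.60 ± 0.11, edgeR adjusted p = 1.04e-07). Tuba1b had 142 and 139.6 CPM against 377, 357 and 390.5 CPM, and Tubb2a had 95.0 and 87.3 CPM against 286, 257 and 244 CPM. Tuba1a, an alpha tubulin of growing neurons, had 381 and 444 CPM against 1142, 1014 and 1070 CPM. In all of these the highest day 2 library was under the lowest day 1 library. Tuba4a (-1.52), Tubb4b (-1.44), Tubb3 (-1.10), Tubg2 (-0.71), Tubb5 (-0.68) and Tubb2b (-0.61) also passed. Tubulin paralogs are similar in sequence, and no source used here says how reads shared by them were counted. The list had 9 calls with the Xist term, 8 with the sequencing components, and 8 and 9 when day 2 replicates 1 and 2 were left out in turn.

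Of 9 intermediate filament genes 3 fell (33.3%, against 6.73% of all genes). These were the neurofilament genes Nefh (98.6 and 82.3 CPM on day 2 against 170.2, 224 and 166 CPM on day 1) and Nefl (log2 -0.66 ± 0.12) and peripherin, Prph (-1.59). With the sequencing components 1 of the 9 was called lower and 2 higher, and the median was log2 0.16 against -0.19 in the main fit. With the Xist term 3 were called lower and 1 higher. Nes, nestin of neural progenitors, rose to 5.51 and 10.1 CPM on day 2, against 0.667, 0.442 and 0.278 CPM on day 1 (edgeR adjusted p = 0.000158, or 0.20 with limma on the authors' normalized values). Of 50 kinesin and dynein genes 3 rose and 4 fell, a share close to that of all genes, among them Kif3a (log2 0.48), a subunit of the kinesin-2 motor, and Klc2 (-0.83), a kinesin light chain.

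Genes of energy metabolism fell by less per gene. Of 79 subunit genes of oxidative phosphorylation 42 fell (53.2%, against 6.73% of all genes) and 1 rose. The median was log2 -0.50, and the summed level was 6094 and 6256 CPM on day 2, against 8477, 8282 and 8475 CPM on day 1. Ndufa4, a subunit of cytochrome c oxidase, had 86.3 and 94.8 CPM on day 2 against 177, 165 and 166 CPM on day 1 (log2 -0.90 ± 0.09, edgeR adjusted p = 6.05e-06). Cox8a, of the same complex, had 70.3 and 64.7 CPM against 116, 121 and 117 CPM. The 42 included subunits of complexes I (Ndufb2, -0.81), III (Uqcr11, -1.09), IV (Cox7b, -0.67) and of ATP synthase (Atp5g3, -0.71). The subunit that rose was Cox6a2, known from heart and skeletal muscle (log2 2.08). The count of falls was 9 with the Xist term, 17 with the sequencing components, and 19 and 21 when day 2 replicates 1 and 2 were left out in turn. The median lay between -0.59 and -0.42 in these.

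Of 22 genes of glycolysis and glucose uptake 13 fell (59.1%, against 6.73% of all genes) and 1 rose (median log2 -0.48). Aldoc, an aldolase, had 352 and 340.0 CPM on day 2 against 978, 997 and 1056 CPM on day 1 (log2 -1.55 ± 0.13, edgeR adjusted p = 9.49e-07), and the groups were far apart. Ldhb, a lactate dehydrogenase subunit, had 183 and 180.3 CPM against 347, 342 and 327 CPM, and Pkm, pyruvate kinase, had 797 and 772 CPM against 1309, 1339 and 1444 CPM. Gapdh, often used as a constant gene, was at log2 -0.87. The glucose transporter gene Slc2a1 rose (0.43) while Slc2a3, the neuronal one, fell (-0.45). Of the 22 genes 8 were called lower with either added term. From day 0 to day 1 the list had a median of log2 -0.04, and 5 of its genes had called differences between the steps, all toward a larger fall on day 2, Aldoc among them (-1.57 ± 0.20, edgeR adjusted p = 0.000472).

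**Figure D5:**
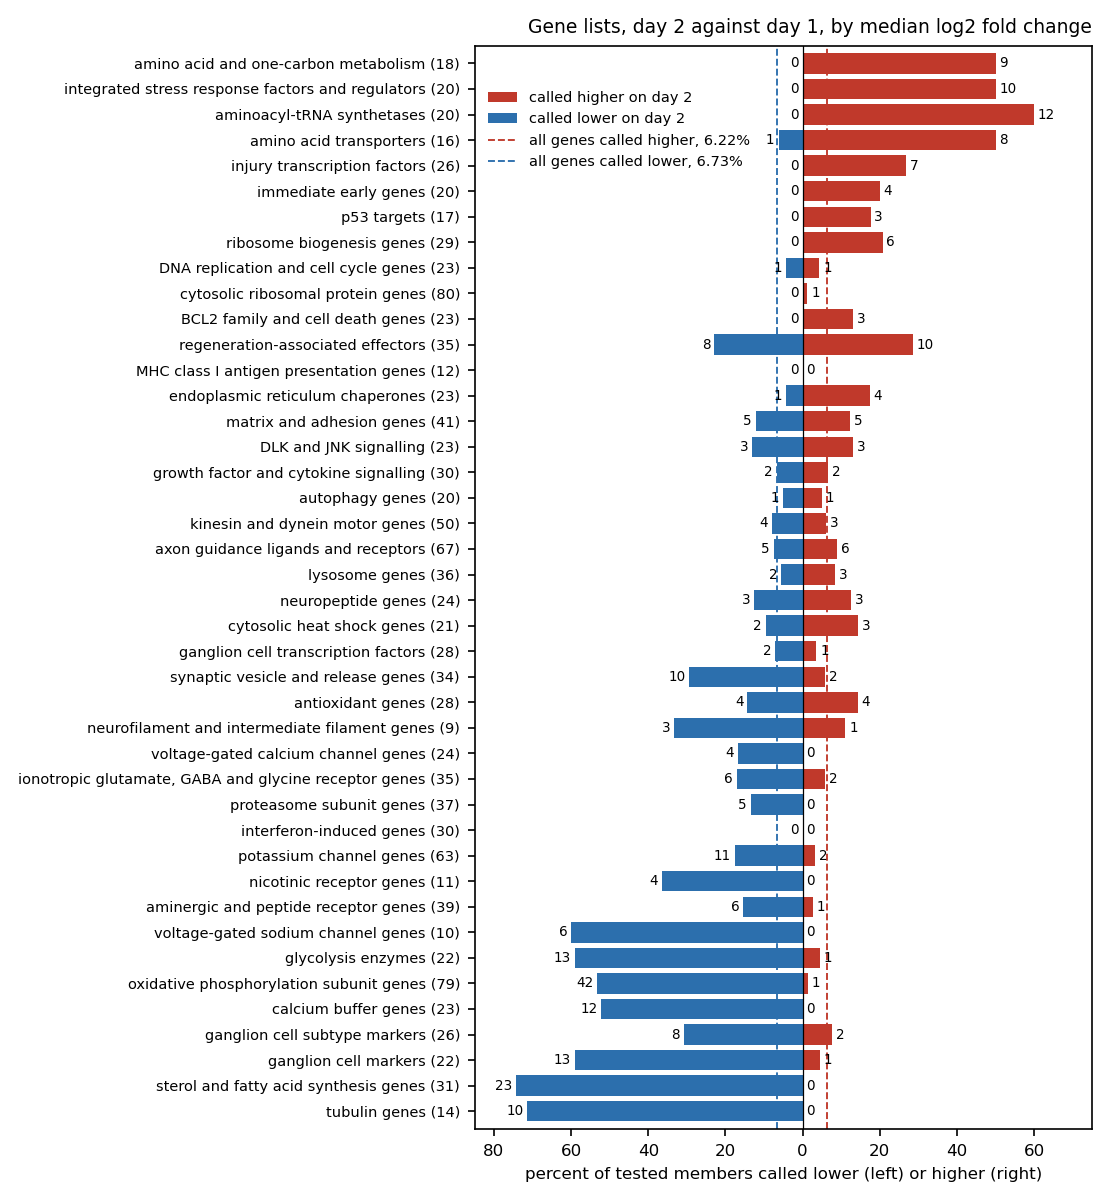
Percent of the tested members of each of 42 gene lists that were called lower (left, blue) or higher (right, red) on day 2, with the number called beside each bar, the number tested in brackets and dashed lines at 6.22% and 6.73% for all genes. Synthetase, stress response, amino acid and transporter lists reach 50% or more on the right, and sterol, tubulin, sodium channel, glycolysis, RGC marker, oxidative phosphorylation and calcium buffer lists pass 50% on the left.

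Of 22 RGC markers 13 fell (59.1%, against 6.73% of all genes) and 1, Gap43, rose (median log2 -0.65). Chrna6, a nicotinic receptor subunit enriched in RGCs, had 97.5 and 101 CPM on day 2 against 314, 309.5 and 331 CPM on day 1 (log2 -1.68 ± 0.11, edgeR adjusted p = 1.04e-07), and the groups did not overlap. Sncg, gamma-synuclein, had 177 and 184 CPM against 361, 378 and 489.9 CPM. Rbpms2 was at log2 -0.64. Slc17a7 (-1.66) is on the list, but this vesicular glutamate transporter is known mainly from photoreceptors and bipolar cells, and rod and cone markers were lower too. Slc17a6, the transporter of RGCs, was at log2 0.28 (edgeR adjusted p = 0.0665). Of the 22 markers 7 were called lower with the sequencing components and 10 with the Xist term. Rbpms, an RNA-binding protein widely used to count RGCs, had 312 and 328 CPM against 379, 431 and 368 CPM (log2 -0.30 ± 0.08), a call lost without either day 2 library, without day 1 replicate 2 and with either added term. Sncg had a day 0 to day 1 change of log2 -0.00, and its steps differed by -1.18 ± 0.20 (edgeR adjusted p = 0.00471). With the Xist term the difference was -1.67 and not called.

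Of 28 RGC transcription factors 1 rose (3.57%) and 2 fell (7.14%), which is not above or is near the 6.22% and 6.73% of all genes. In the lower direction 9 had an unadjusted p under 0.05 in edgeR. Over all 13737 genes, 3437 had one in either direction. Of the 28, DESeq2 called 6 lower, and edgeR 8 with the days compared alone. Pou4f1 had 298 and 299 CPM on day 2 against 299, 295 and 297 CPM on day 1, and the groups overlapped (log2 0.01 ± 0.11, edgeR adjusted p = 0.98). Pou4f2, the BRN3B factor of RGC differentiation, had 137 and 121 CPM against 189, 170.4 and 156 CPM (log2 -0.41 ± 0.11, edgeR adjusted p = 0.0241). Its call, and those of Irx6 (-0.89) and Foxp1 (0.43), were each lost without day 2 replicate 2 and with either added term, among other settings. Of 26 markers of RGC subtypes 8 fell (30.8%) and 2 rose (7.69%). Cck, a neuropeptide gene, had 6.07 and 4.02 CPM against 20.7, 23.3 and 27.2 CPM. Spp1, osteopontin of alpha RGCs, fell by 1.14 on the log2 scale, and Postn (2.28) rose. Of the 26, 2 were called lower with the sequencing components and 3 with the Xist term.

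Channel genes fell more often than they rose. Of 10 voltage-gated sodium channel genes tested 6 fell (60%, against 6.73% of all genes). Scn4b, an auxiliary subunit of fast firing, had 0.934 and 1.43 CPM on day 2 against 9.48, 14.9 and 9.81 CPM on day 1 (log2 -3.26 ± 0.54, edgeR adjusted p = 0.000694, or 0.055 with the Xist term). Scn1a, a pore subunit, had 589 and 605 CPM against 989, 1008 and 911 CPM, and Scn8a, the main pore of the axon initial segment, had 336 and 338 CPM against 451, 520.2 and 440.4 CPM. Of 63 genes in the potassium channel list 11 fell (17.5%) and 2 rose (3.17%). Kcnc1 (log2 -0.43), Kcnc2 (-0.44), Kcna1 (-0.40) and Kcna2 (-0.48), which shape fast firing and repolarization, were among the falls. The rises were Kcnj13 (2.06) and Kcnq1ot1, which is a long noncoding RNA antisense to Kcnq1 and no channel. Of 24 calcium channel genes 4 fell (16.7%) and 0 rose. Cacng5, an auxiliary subunit, was at 123 and 114 CPM against 239, 213 and 219 CPM. Cacna1g, a low-threshold channel, was at 56.7 and 57.5 CPM against 90.5, 87.9 and 98.9 CPM. With the sequencing components 1 sodium and 2 potassium channel genes were called lower, and with the Xist term 2 of each.

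Among receptors, of 11 nicotinic receptor genes 4 fell (36.4%, against 6.73% of all genes). These were Chrna6, Chrna4 (log2 -1.14), Chrnb3 (556 and 499 CPM on day 2 against 895, 972 and 904 CPM on day 1) and Chrnb2 (-0.50). Of 35 glutamate, GABA and glycine receptor genes 6 fell (17.1%), Gabrg1 (-1.08) and Gria3 (-0.55) among them. The 2 that rose (5.71%, against 6.22% of all genes) were Gria1 (0.56) and Grik3 (0.57). Of these 35 genes, 0 were called with the sequencing components. Of 39 aminergic and peptide receptor genes 6 fell (15.4%) and 1 rose (2.56%). Npy1r, a receptor of neuropeptide Y, had 13.5 and 8.80 CPM against 28, 24.3 and 26.2 CPM, and the serotonin receptor Htr2a rose 2.90-fold to 28.2 and 30.3 CPM, against 9.13, 10.8 and 10.3 CPM (edgeR adjusted p = 0.000146).

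Calcium buffers and sensors fell, 12 of 23 (52.2%, against 6.73% of all genes), with 0 rises and a median log2 of -0.56. Calb1, calbindin, had 21.4 and 15 CPM on day 2 against 80.1, 82 and 90.2 CPM on day 1 (log2 -2.21 ± 0.16, edgeR adjusted p = 1.75e-07). Pvalb, parvalbumin, had 12.8 and 11.4 CPM against 53.4, 55.6 and 58.4 CPM (log2 -2.20 ± 0.15, edgeR adjusted p = 1.41e-07). For both genes each day 2 library lay far below each day 1 library. Pvalb was at log2 -0.27 from day 0 to day 1 (not called), and its steps differed by -1.94 ± 0.22, a difference called under all 18 alternatives. Vsnl1, a neuronal calcium sensor, had 1361 and 1263 CPM against 2791, 2834 and 2112 CPM. The calcium sensors Hpca (-1.04) and Ncs1 (-0.51) fell too. The list had 10 calls with the sequencing components, 7 with the Xist term, and 11 and 9 without day 2 replicates 1 and 2 in turn.

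Of 34 genes of synaptic vesicles and release 10 fell (29.4%) and 2 rose (5.88%), against 6.73% and 6.22% of all genes. Vamp1, a vesicle fusion protein, had 102 and 90.0 CPM on day 2 against 280.1, 318 and 212 CPM on day 1 (log2 -1.50 ± 0.17), Rab3a, the vesicle GTPase, had 156 and 138 CPM against 292, 295 and 361 CPM, and Cplx1, complexin, had 359.8 and 322 CPM against 573, 627 and 574 CPM (edgeR adjusted p = 5.98e-05). Snap25, a membrane fusion protein of nerve endings, had 14121 and 14695 CPM against 21010, 21299 and 17182 CPM (log2 -0.46 ± 0.08), and was not called with either added term. Syt4 (0.54) and Syn3 (0.56) rose. Of the 34, 4 were called lower with the sequencing components and 6 with the Xist term. Of 24 neuropeptide genes 3 rose and 3 fell (12.5% each way). The rises were Vgf, Adcyap1 (103 and 113 CPM on day 2 against 53.3, 55 and 53.2 CPM on day 1) and Tac1 (1.20). The falls were Cck, Chga (-0.78) and Pcsk1n (-0.74).

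Protein synthesis and turnover genes changed less. Of 29 ribosome biogenesis genes 6 rose (20.7%, against 6.22% of all genes) and 0 fell (median log2 0.23). Nucleolin, Ncl, was at 1073 and 1175 CPM on day 2 against 828, 816 and 729 CPM on day 1. Nucleophosmin, Npm1, was at 270.3 and 283 CPM against 194, 205 and 169 CPM. Of the 29, 2 were called higher with the sequencing components and 3 with the Xist term. Of 80 cytosolic ribosomal protein genes only Rps15a passed (log2 0.68, edgeR adjusted p = 0.00042), while the median was 0.16. Both day 2 libraries were above all day 1 libraries in 27 of the 80, a pattern seen in 22.5% of all genes. Of 37 proteasome subunit genes 5 fell (13.5%, against 6.73% of all genes). Among them Psmd5 and Psmb6 were at -0.44 and -0.45, and neither call held without day 2 replicate 1. Lysosome genes (3 higher and 2 lower of 36), autophagy genes (1 and 1 of 20, Sqstm1 at 0.64 and Atg7 at -0.53) and cell cycle genes (1 and 1 of 23, Mcm6 at 1.42 and Cdkn2d at -0.54) were near the background.

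Interferon-induced genes varied between libraries within each day. Their 30 genes summed to 4947 and 1666 CPM on day 2, against 4496, 4772 and 2252 CPM on day 1, so each day held high and low libraries. None of the 30 was called by edgeR or DESeq2, and 0 had an unadjusted p under 0.05 in edgeR. The same held for 12 genes of MHC class I antigen presentation, at 4435 and 1934 CPM on day 2 against 3971, 2015 and 2674 CPM on day 1. Of 17 microglia and macrophage markers 0 were called by edgeR or DESeq2 and 1 had an unadjusted p under 0.05, a count that depended on day 1 replicate 1 as given above. Of 15 bipolar cell markers 0 were called and 1 was under it. The rod gene Gnat1 (61.5 and 80.7 CPM on day 2 against 185, 216 and 252 CPM on day 1) was called lower, at log2 -1.61 ± 0.45, and its call was lost without either day 2 library and with the Xist term. Among other markers, 2 of 6 vascular markers were lower, Vtn and Kdr, and 1 of 3 oligodendrocyte markers, Mbp (33.3% each, against 6.73% of all genes). Of 16 Müller glia and astrocyte markers S100b, Aldoc and Dbi were lower, and of 12 amacrine and horizontal cell markers Onecut2 was higher and Calb1 lower.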

How the data were processed

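RNA of sorted mouse RGCs was read from SMART-Seq v4 libraries, a full-length kit that does not mark strand, per the labels' protocols. The deposited table holds counts of reads per gene by the authors, and STAR, Picard, HTSeq, edgeR and mm10 are listed in the submitters' processing notes with no roles or versions. The authors' normalized log2 values were deposited beside it and served only as an alternative. Per the file headers, the deposited sample sheet gives components of sequencing metrics as scores. Counts were tested with edgeR 4.0.16 (R 4.3.3), with TMM scaling and its expression filter, all 13 RNA libraries and day in 1 quasi-likelihood fit. Calls are 2-sided with a Benjamini-Hochberg adjusted p under 0.05, and SE is the log2 fold change over the root of F. A second contrast set the step from day 1 to day 2 against that from day 0 to day 1. The code was tested on simulated data. Alternatives were DESeq2 1.42.0, limma 3.58.1 on the log2 values, other scalings and filters, the 2 days alone, a replicate block, sequencing components, Xist level, a fold threshold and leaving out libraries. CPM is scaled to TMM library size and is not per length, so levels are compared within genes.

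Named genes are the 12 largest called rises and falls with a mean of at least 5 CPM and no overlap, up to 3 called members of each list with the smallest adjusted p, and 13 fixed genes. Other genes were named after their values were seen. Some genes that the rule names are not reported here. The members and the 50 lists were chosen with earlier results of these data known. Day 2 replicate 3, day 4 replicate 1 and all ATAC samples were left out. Promoters are RefSeq's (GRCm38.p6). Figures used Python 3.11.15 and matplotlib 3.10.9.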

Additional observations from a re-analysis of the deposited data

Results flagged for a closer look

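Among the named genes, 3 passed edgeR's test in each of the 2 steps, from day 0 to day 1 and from day 1 to day 2, in opposite directions, and in the difference between the steps. Named genes with an earlier step that did not pass, such as Hspa5, are not among them. Kcnq1ot1, a long noncoding RNA antisense to Kcnq1, had 253 and 221 CPM on day 2, against 101, 115 and 113 CPM on day 1 and 149 to 172 CPM on day 0. Its later step minus its earlier step was log2 1.68 ± 0.29 (edgeR adjusted p = 0.00472), and this was not called with the sequencing components or the Xist term. Because the kit does not mark strand, reads from the stretch where Kcnq1ot1 and Kcnq1 overlap cannot be told apart by strand. Plekhg1 had 2.48 and 3.53 CPM on day 2 against 8.1, 15.5 and 11.6 CPM on day 1 and 2.11 to 4.16 CPM on day 0, a difference of the steps of -3.73 ± 0.71 (edgeR adjusted p = 0.00935). That call was lost with the sequencing components, without day 1 replicate 2 and without day 2 replicate 1. Vtn, vitronectin, which is on the vascular marker list, had 2.8 and 3.26 CPM on day 2 against 11.4, 9.99 and 11.5 CPM on day 1 and 3.31 to 6.77 CPM on day 0, a difference of -3.04 ± 0.62 (edgeR adjusted p = 0.0134) that was called under 12 of 18 alternatives. The other 5 vascular markers tested summed to 5.42 to 6.43 CPM on day 2 against 7.87 to 13.6 CPM on day 1, and their part in the values of Vtn was not tested.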

How the results depend on the processing

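With the sequencing components as terms, 626 genes were called (341 higher, 285 lower) and 114 differed between the steps, and with the Xist level 483 were called (230 higher, 253 lower) and 27 differed. A 2-fold threshold left 352 (186 higher, 166 lower). The step difference had 746 calls with DESeq2 and 167 from the days compared alone. Leaving out 1 library gave 682 to 1434 calls, 338 to 691 higher, 344 to 743 lower and 108 to 500 step differences. Each other setting gave 1736 to 1928 calls, apart from DESeq2 (2201) and the replicate block. Among the named genes, the Xist term turned the sign of Jun (log2 -0.44), Creb5 (-0.0895) and Il1b (-0.32), of which only Il1b had been called. Of all 1779 calls, 5 had the opposite sign with the Xist term. Pou4f1, near 0, was at -0.00105 with a mean count of at least 20, -0.00189 with the days compared alone and -0.0173 with limma. The Xist term and limma were chosen after seeing the data. The cause of these changes was not tested.

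Fitted with a replicate block, 1514 genes were called (721 higher, 793 lower), 289 differed between the steps, and Pou4f1 was at log2 -0.00974. Deviations of same-numbered libraries correlated at 0.0439 and -0.00255. With 2 libraries on day 2, their deviations from the day mean mirror each other, so these values cannot show whether the numbers pair the samples.

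With 2 libraries on day 2, leaving 1 out leaves a lone library that is assumed to vary like the other days.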
